A study of Mus musculus with 3 samples.

Results

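Kidney of mice given nephrotoxic serum (NTS) and then prostaglandin E2 (PGE2) was compared with kidney of untreated mice, gene by gene, across the whole transcriptome. All mice were female, 8 to 10 weeks old and of the strain spelled CBL/6 in the labels. NTS is a sheep antiserum against the glomerulus, and the mice received it in 1 injection of 13.5 ug per g of body weight. From day 2 they received PGE2 at 5 ug per g each day, and kidneys were taken on day 7. The control mice are described as non-treated, with no vehicle or control serum named, so an effect of the serum, of PGE2 and of the injections themselves cannot be told apart in this comparison. RNA of 250 ng per array was read on Affymetrix Mouse Gene 1.0 ST arrays. The series holds 3 arrays, of which 2 enter the comparison. The array of kidney given NTS alone is quoted beside them for context, and any difference of either treated array from control uses the same control array. The labels do not say whether an array holds 1 animal or a pool. With 1 array per group there was no replicate check of any difference, no p-value is given, and precision is limited by having so few arrays. All levels below are log2 values of the robust multi-array average (RMA), and a difference is the NTS/PGE2 value minus the control value, so that -1 is 2-fold lower. Values of a gene are written for control, NTS and NTS/PGE2 kidney in turn, with the difference in parentheses. A gene entered the comparison when its brighter value was at or above the median probe set of the array it came from. This left 11534 of 19938 genes.

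As background, antibodies of the serum deposit on the glomerular filter, draw in complement and leukocytes and injure podocytes, and the tubules that receive the leaked protein become injured in turn. PGE2 is made from arachidonic acid by cyclooxygenases and terminal synthases. It acts through the receptors EP1 to EP4, of which EP2 and EP4 raise cyclic AMP, EP3 lowers it and EP1 acts through calcium. In the kidney it is known for its part in renal blood flow, renin release and salt and water transport.

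The tissue label held on both arrays. Umod, the urinary glycoprotein of the thick ascending limb, read 13.70 in control, 13.64 after NTS and 13.74 after NTS/PGE2 (0.04). Lrp2, the megalin receptor of the proximal tubule, read 12.93 in control, 11.53 after NTS and 13.34 after NTS/PGE2 (0.41), and Slc34a1, its phosphate transporter, read 13.64 in control, 12.21 after NTS and 13.55 after NTS/PGE2 (-0.09). All 3 were among the brighter values of both arrays. The control array stood above both treated arrays in many genes of fat and in some genes of urothelium, the lining of the renal pelvis, and of smooth muscle. In other urothelial genes, such as Sprr1a and Krt19, only the NTS/PGE2 array was low. Fat and the renal pelvis adjoin the kidney, smooth muscle is also found in its vessels, and the lists of urothelium, mesothelium and smooth muscle are together called the pelvis lists. Of the 30 largest lower differences below, 13 lie in fat lists and 5 in pelvis lists, so counts are given with and without these genes. The part that a different amount of such tissue on the control array has in them was not tested. In whole tissue, fewer cells of a type and less RNA per cell cannot be told apart.

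The 2 arrays were close to each other. Pearson's r over all probe sets was 0.991, and across the 11534 genes the median difference was 0 with an SD of 0.26. Differences lay within 0.25 for 84.6% of genes, and the lowest and highest 1% of genes lay beyond -0.85 and 0.47. Exactly equal values on both arrays, which the probe summary of RMA can produce, were found for 28.0% of genes, 3558 genes were higher and 4743 lower. At least 2-fold higher after NTS/PGE2 were 7 genes, or 0.0607% of those compared, and at least 2-fold lower were 76, or 0.659%. At 1.5-fold the counts were 64 higher, or 0.555%, and 248 lower, or 2.15%. At least 4-fold lower were 20 genes and 4-fold higher 0. Where a gene had 2 bright probe sets (455 genes), their differences had an SD of 0.12 per probe set, which covers the spread between probes and not that between animals. Just inside the size rule lay Slc6a15 at 1.04 and Insig1 at -1.002, and just outside lay Ccl28 at 0.99 and Trf at -0.995. The filter left out Nrg4, which read 7.10 on the control array with a difference of -1.33, and kept Vcan, which read 7.25 with -1.25. After quantile normalisation of the 2 arrays the higher count was 12. Without the genes of fat, pelvis and other-tissue lists the counts were 7 and 46. The 46 still hold Prkar2b, Abcd2, Slc36a2, Adig and Lgals12, described below as also abundant in fat. In the gene lists below, medians are over all measured members, and a member is counted as past 2-fold or 1.5-fold only if it also passed the filter. The shares of all genes compared are over passing genes, so they apply to the passing members of a list. The lists were chosen with earlier results of these data known, so a count above such a share is no independent evidence.

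**Figure D1:**
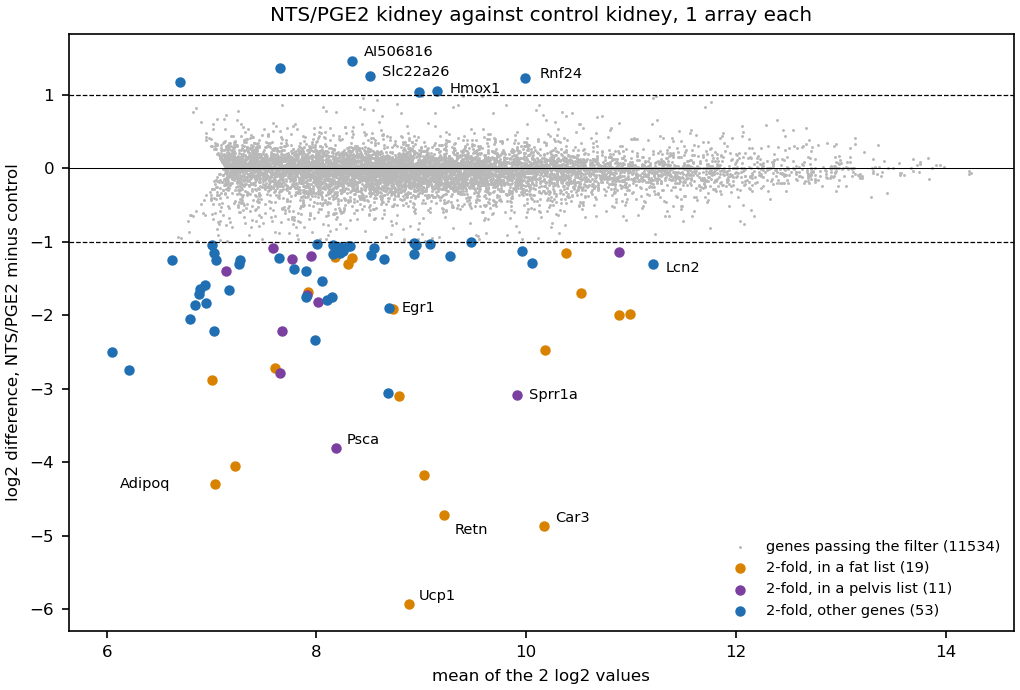
Difference in log2 RMA value (NTS/PGE2 minus control, vertical axis) against the mean of the 2 log2 values (horizontal axis) for the 11534 genes compared, 1 array per group. Broken lines mark 2-fold. Orange points are 2-fold genes of the fat lists (19), purple those of the pelvis lists (11) and blue the other 2-fold genes (53), and the largest differences are all on the lower side.

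Few genes were 2-fold higher than in untreated kidney. The largest difference was in AI506816, a long non-coding RNA, which read 7.60 in control, 10.43 after NTS and 9.07 after NTS/PGE2 (1.46). Slc22a26, an organic anion transporter gene of the family that moves drugs and metabolites across the proximal tubule, read 7.88 in control, 7.18 after NTS and 9.14 after NTS/PGE2 (1.25). Rnf24, a membrane RING-finger protein, read 9.37 in control, 7.80 after NTS and 10.61 after NTS/PGE2 (1.23). Slc6a15, a transporter of neutral amino acids, read 8.46 in control, 8.01 after NTS and 9.50 after NTS/PGE2 (1.04). Muc19, a gel-forming mucin, read 6.12 in control, 6.31 after NTS and 7.29 after NTS/PGE2 (1.17), and its 2 probe sets differed by 0.52 and 1.83. Hmox1, which degrades heme and is induced by oxidative stress, read 8.62 in control, 10.73 after NTS and 9.67 after NTS/PGE2 (1.05). On the NTS array AI506816 and Hmox1 were above both other arrays, whereas Slc22a26, Rnf24 and Slc6a15 were highest on the NTS/PGE2 array. The remaining 2-fold higher gene is a vomeronasal receptor gene, a class passed over by name and only counted. Slc22a26 belongs to a cluster of closely related genes, and probes that match several of them cannot separate them, as also for Cyp4a12a and Gsdmc2 below.

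Genes of the proximal tubule had a median difference near 0, with single genes on either side. Of 42 measured members of the proximal tubule list 40 passed the filter, and the median difference over all 42 was 0.00. Of the 40, 1 was 2-fold higher and 2 were 2-fold lower, and 7 were 1.5-fold higher and 4 were 1.5-fold lower. Of all genes compared, 0.0607% were 2-fold higher and 0.659% were 2-fold lower, and 0.555% were 1.5-fold higher and 2.15% were 1.5-fold lower. The higher members included Slc10a2, the apical bile acid transporter, which read 8.90 in control, 6.30 after NTS and 9.89 after NTS/PGE2 (0.98). Below 2-fold were also Slc22a30 at 0.87, Mep1b, a brush-border protease, at 0.86 and Slc17a3, a transporter of organic anions such as urate, at 0.84. The organic solute carriers, a list that shares Slc22a26 and Slc22a30 with it, had 26 measured members, 2 of them 2-fold higher and 0 2-fold lower, with a median of 0.03. The 2 lower members of the proximal tubule list stood far from the rest. Cyp27b1, which makes the active form of vitamin D, read 8.995 in control, 11.98 after NTS and 7.20 after NTS/PGE2 (-1.80), so the NTS array was the highest and the NTS/PGE2 array the lowest. Acsm3, a medium-chain acyl-CoA synthetase, read 7.82 in control, 5.68 after NTS and 5.77 after NTS/PGE2 (-2.04), and its value on the NTS/PGE2 array lay below the 25th percentile of that array, among its dimmest values.

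The 6 largest lower differences were all in genes of the fat lists. The fat lists, chosen with earlier results of these data known, together had 100 measured members, of which 88 passed the filter. Of the 88, 19 or 21.6% were 2-fold lower, against 0.659% of all genes compared, and 0 were 2-fold higher. The median difference over all 100 measured members was -0.33. Ucp1, which uncouples respiration in brown fat to make heat, read 11.84 in control, 5.72 after NTS and 5.91 after NTS/PGE2 (-5.93). Cidea, a lipid droplet protein of brown fat, read 9.25 in control, 5.73 after NTS and 5.20 after NTS/PGE2 (-4.06), and Cox8b and Cox7a1, subunits of cytochrome c oxidase in brown fat and muscle, differed by -2.47 and -1.15. The brown fat list, with Elovl3 at -2.88, had a median of -0.32 over 21 members, of which 17 passed the filter. Of the 17, 5 were 2-fold lower. By any amount 12 were lower, 2 were higher and 3 were equal. Members that differed little included Prdm16 at 0, Ppargc1a at -0.14 and Pank1 at 0.18. The NTS and NTS/PGE2 arrays lay close together and far below the control array for Ucp1 and Cidea. The summed level of the brown fat list was 14.45 in control, 13.55 after NTS and 13.76 after NTS/PGE2 on the log2 scale.

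Some adipokines were lower on both treated arrays and others were not. Adipoq, the fat cell hormone adiponectin, read 9.18 in control, 4.70 after NTS and 4.88 after NTS/PGE2 (-4.30), and Retn, resistin, read 11.58 in control, 6.60 after NTS and 6.85 after NTS/PGE2 (-4.72). Pparg, the master regulator of fat cell formation, read 8.78 in control, 7.57 after NTS and 7.58 after NTS/PGE2 (-1.21). Of 20 measured members of the fat cell identity list 14 passed the filter. Of the 14, 5 were 2-fold lower, against 0.659% of all genes compared, with Orm1 at -2.71 and Rbp4, the retinol carrier, at -1.30 as the others. The median over all 20 was -0.48. Lep, leptin, was equal on both arrays and did not pass the filter, Apln, apelin, differed by 0.03 and Agt, angiotensinogen, by 0.24. Lipid droplet and lipolysis genes had a median of -0.38 over 22 members. Of the 21 that passed the filter 3 were 2-fold lower, against the same 0.659%. These were Cidec, which fuses lipid droplets, at 11.11 in control, 8.25 after NTS and 6.94 after NTS/PGE2 (-4.17), Fabp4, the fatty acid binding protein of fat cells and capillaries, at -1.98, and Plin1, the coat protein of the droplet, at -1.68. Of 24 fatty acid and triglyceride synthesis genes, all of which passed the filter, 4 were 2-fold lower, against the same 0.659%. The median was -0.25. Thrsp, a lipogenesis regulator, read 10.34 in control, 6.35 after NTS and 7.23 after NTS/PGE2 (-3.10), Fasn, fatty acid synthase, differed by -1.995, Acaca, acetyl-CoA carboxylase, by -1.92 and Agpat2, an acyltransferase, by -1.69. Genes of insulin and glucose handling had a median of -0.45 over 13 members. Of the 12 that passed the filter 2 were 2-fold lower, against the same 0.659%. Car3, a carbonic anhydrase abundant in fat and muscle, read 12.61 in control, 7.25 after NTS and 7.74 after NTS/PGE2 (-4.86), and Gys2, a glycogen synthase, differed by -1.22. Values of Adipoq, Cidea and Elovl3 on the NTS/PGE2 array lay below its 25th percentile, among its dimmest values.

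Prkar2b, a regulatory subunit of the cyclic AMP-dependent kinase that is also abundant in fat, read 10.21 in control, 6.46 after NTS and 7.15 after NTS/PGE2 (-3.06). Promoter sequence is shown here for 3 of the lower genes. Ucp1 was shown as the largest difference. Sprr1a and Prkar2b were shown as the largest lower differences whose window holds a motif match, so their matches follow from this choice. Each run is the 250 bases before the RefSeq transcription start on GRCm38.p6, 5′ to 3′ on the gene's strand, and capitals mark a motif match. Ucp1 lies at chr8:83290098-83290347 on the plus strand, Sprr1a at chr3:92485882-92486131 on the minus strand and Prkar2b at chr12:32061278-32061527 on the minus strand.
Ucp1: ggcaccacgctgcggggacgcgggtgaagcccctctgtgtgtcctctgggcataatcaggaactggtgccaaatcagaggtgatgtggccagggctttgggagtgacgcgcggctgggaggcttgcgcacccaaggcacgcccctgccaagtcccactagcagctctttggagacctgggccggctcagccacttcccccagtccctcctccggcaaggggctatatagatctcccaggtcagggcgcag
Sprr1a: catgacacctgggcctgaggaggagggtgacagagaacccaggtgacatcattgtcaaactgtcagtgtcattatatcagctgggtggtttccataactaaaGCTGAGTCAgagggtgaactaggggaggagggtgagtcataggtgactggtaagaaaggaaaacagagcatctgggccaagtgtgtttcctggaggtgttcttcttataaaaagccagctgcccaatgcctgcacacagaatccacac
Prkar2b: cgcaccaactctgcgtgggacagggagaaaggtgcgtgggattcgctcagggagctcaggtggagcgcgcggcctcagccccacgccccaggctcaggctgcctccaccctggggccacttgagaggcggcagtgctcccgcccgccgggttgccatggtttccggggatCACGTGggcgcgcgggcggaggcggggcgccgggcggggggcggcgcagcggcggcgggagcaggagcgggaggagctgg
In Sprr1a the capitals mark an antioxidant response element core, TGACNNNGC read on the opposite strand, which starts at base 103 of the window. In Prkar2b they mark an E-box, CACGTG, which starts at base 171. Of the 83 genes past 2-fold, 58 had a window. Both strands were searched, a gene with several windows was counted once, and none of the 3 windows shown holds overlapping matches. A gene was counted if any of its windows matched, whereas the shares below are per window, so the counts and shares are not alike. The E-box was found in 5 genes, B3galt2, Cck, Insig1, Phospho1 and Prkar2b, all lower, against 6.02% of all 32851 windows. The antioxidant response element core was found in 7 lower genes, Cd72, Cxcl13, Ifi205, Postn, Pparg, Sprr1a and Timp4, against 10.2% of windows. The D-box TTATGTAA was found in Acsm3, against 0.819%. The cyclic AMP response element TGACGTCA (1.55% of windows) and the palindromic C/EBP motif TTGCGCAA (0.164%) were found in 0 of the 58. A match describes these letters only.

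**Figure D2:**
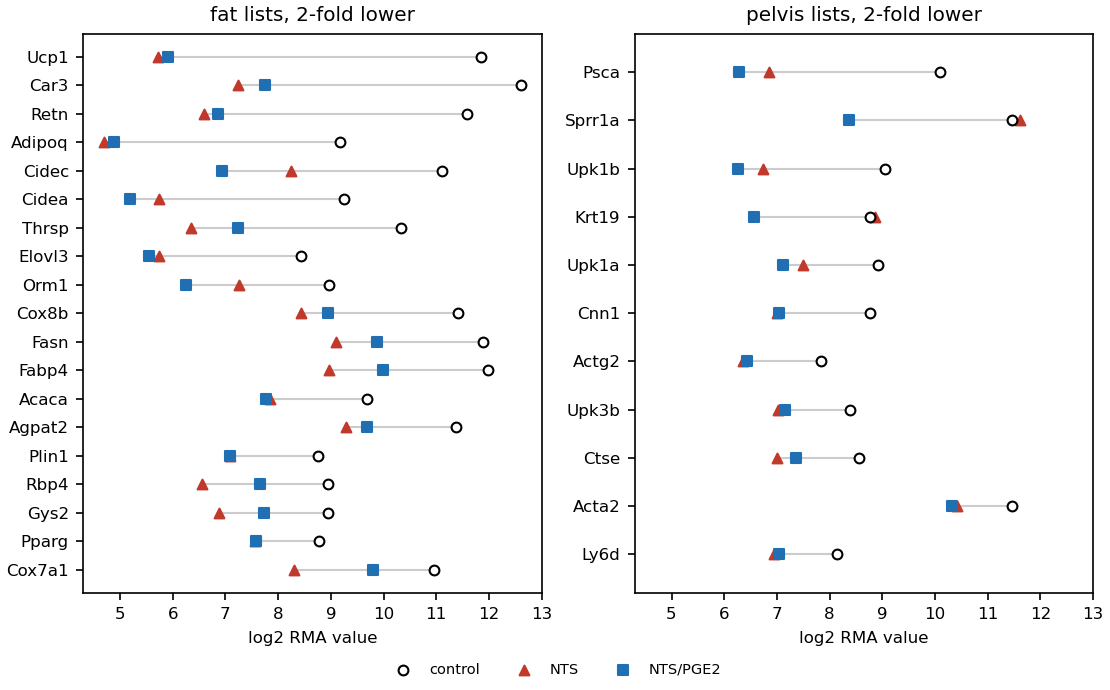
Log2 RMA values of the 2-fold genes of the fat lists and the pelvis lists on the control, NTS and NTS/PGE2 arrays, 1 array each (horizontal axis). For Ucp1 both treated arrays sit at 5.72 and 5.91 against 11.84 on the control array, whereas for Sprr1a the NTS array (11.60) sits beside the control array (11.45).

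Urothelium and smooth muscle genes also held 2-fold lower members. Of 38 measured urothelium and squamous epithelium genes 22 passed the filter. Of the 22, 7 were 2-fold lower, against 0.659% of all genes compared, and 0 were 2-fold higher. The median over all 38 was -0.21. Psca, a surface protein of urothelium, read 10.09 in control, 6.85 after NTS and 6.29 after NTS/PGE2 (-3.81). Upk1b and Upk1a, uroplakins that build the plaques of the urothelial surface, differed by -2.79 and -1.81. Krt19, a keratin of ductal epithelium, read 8.77 in control, 8.87 after NTS and 6.56 after NTS/PGE2 (-2.21), and Sprr1a, a cornified envelope protein, read 11.45 in control, 11.60 after NTS and 8.36 after NTS/PGE2 (-3.09). For Psca and the uroplakins both treated arrays were low, whereas for Krt19 and Sprr1a the NTS array lay beside the control array and only the NTS/PGE2 array was low. Ctse, a protease, and Ly6d, a surface protein of squamous cells, differed by -1.20 and -1.09. The basal keratin Krt5 read 7.36 in control, 6.54 after NTS and 6.36 after NTS/PGE2 (-0.995) and the uroplakin Upk2 read 8.15 in control, 7.03 after NTS and 7.39 after NTS/PGE2 (-0.76). The other keratins Krt14, Krt15 and Krt17 were equal on the control and NTS/PGE2 arrays and did not pass the filter. Among passing members 1 was above control, Foxq1, at 10.20 in control, 9.18 after NTS and 10.81 after NTS/PGE2 (0.61). The summed level of the list was 14.26 in control, 14.26 after NTS and 13.50 after NTS/PGE2. Smooth muscle and pericyte genes, which also mark vessels, had a median of -0.08 over 17 members. Of the 15 that passed the filter 3 were 2-fold lower, against the same 0.659%. Cnn1, calponin, differed by -1.72, Actg2, enteric actin, by -1.40 and Acta2, smooth muscle actin, read 11.45 in control, 10.41 after NTS and 10.31 after NTS/PGE2 (-1.14). Of 13 mesothelium genes only Upk3b was past 2-fold, at -1.23, and the median was 0.

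Several injury and acute phase genes that were high on the NTS array stood below control after NTS/PGE2. Lcn2, a secreted iron-binding protein used as a marker of tubular injury, read 11.86 in control, 13.85 after NTS and 10.56 after NTS/PGE2 (-1.30). Krt18, a keratin of simple epithelia, read 9.88 in control, 10.74 after NTS and 8.68 after NTS/PGE2 (-1.19), and S100a6, a calcium-binding protein, read 9.02 in control, 10.07 after NTS and 7.28 after NTS/PGE2 (-1.75). In each of these the NTS array was the highest of the 3 and the NTS/PGE2 array the lowest. Havcr1, the tubular injury molecule Kim-1, went the other way and read 6.77 in control, 12.63 after NTS and 7.50 after NTS/PGE2 (0.73), above control on both treated arrays. Of 23 measured tubular injury genes 18 passed the filter. Of the 18, 1 was 2-fold higher, Hmox1, against 0.0607% of all genes compared, and 3 were 2-fold lower, against 0.659%. The median over all 23 was -0.09. The list's summed level was 15.35 in control, 16.44 after NTS and 15.21 after NTS/PGE2.

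Among 26 acute phase and complement genes 18 passed the filter, and the median over all 26 was -0.26. Of the 18, 2 were 2-fold lower, against 0.659% of all genes compared, and 0 were 2-fold higher. Serpina3n, an acute phase protease inhibitor, read 8.60 in control, 12.21 after NTS and 7.20 after NTS/PGE2 (-1.40). Orm1, an acute phase plasma protein that also stands in the fat list, read 8.96 in control, 7.26 after NTS and 6.25 after NTS/PGE2 (-2.71). Hp, haptoglobin, read 7.96 in control, 7.05 after NTS and 6.998 after NTS/PGE2 (-0.96), and C3ar1, the receptor of complement fragment C3a, read 8.18 in control, 6.85 after NTS and 7.30 after NTS/PGE2 (-0.88). For Serpina3n the NTS array was highest, while for Orm1, Hp and C3ar1 both treated arrays were below control. The fibrinogen chains Fgb and Fgg, high on the NTS array at 12.66 and 13.12, read 8.23 and 9.02 on the control array and 7.97 and 8.76 on the NTS/PGE2 array. The remaining chain, Fga, read 7.14 in control, 10.08 after NTS and 7.54 after NTS/PGE2 (0.40), above control on both treated arrays. Cell cycle genes had a median of 0.07 over 26 members, of which only 10 passed the filter, and 0 were counted past 1.5-fold. The largest difference that passed was Ccnd1, a G1 cyclin, at -0.51. Of 29 matrix and fibroblast genes, with a median of -0.06, 27 passed the filter. Of the 27, 1 was 2-fold lower, against the same 0.659%. It was Postn, a matrix protein of remodelling tissue, at -1.71. Dcn, the matrix proteoglycan decorin, differed by -0.89 and Ccn1, a secreted matrix signal, by -0.96.

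**Figure D3:**
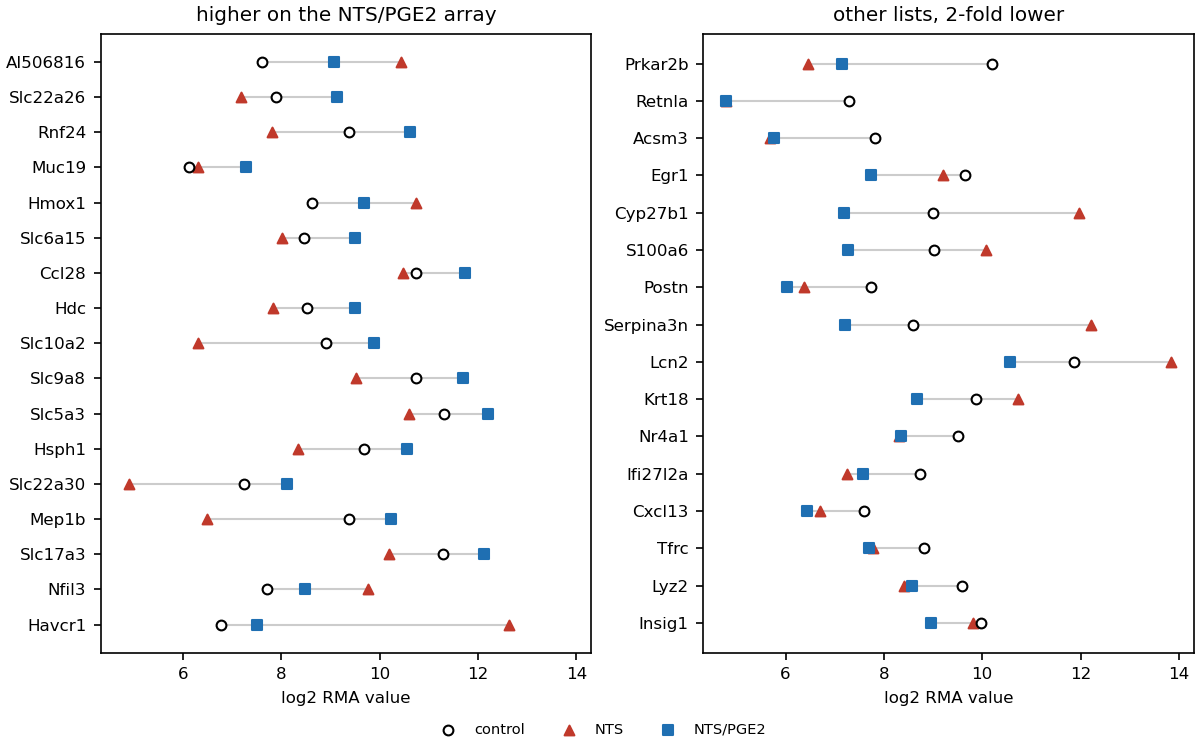
Log2 RMA values on the control, NTS and NTS/PGE2 arrays, 1 array each, for genes higher on the NTS/PGE2 array (left) and for 2-fold lower genes of lists other than fat and pelvis (right). On the left, genes from Ccl28 down are below 2-fold, and Hdc and Slc9a8 were chosen after their values were seen. Lcn2 and Serpina3n are highest on the NTS array and lowest on the NTS/PGE2 array.

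Immediate early genes, which cells transcribe within minutes of a stimulus, held a few larger differences, nearly all on the lower side. Of 38 measured members 34 passed the filter. Of the 34, 2 were 2-fold lower, against 0.659% of all genes compared. At 1.5-fold 7 were lower, against 2.15%, and 0 were higher, against 0.555%. The median over all 38 was -0.11. Egr1, a zinc finger factor, read 9.65 in control, 9.21 after NTS and 7.74 after NTS/PGE2 (-1.91). Nr4a1, an orphan nuclear receptor, read 9.52 in control, 8.30 after NTS and 8.35 after NTS/PGE2 (-1.17). Klf10, Ccn1, Plk3 and Zfp36 differed by -0.97, -0.96, -0.95 and -0.92, and Fosb went the other way, at 0.58. Fos read 7.34 in control, 6.95 after NTS and 6.95 after NTS/PGE2 (-0.39). Egr1 had its lowest value after NTS/PGE2. The list of cyclic AMP and CREB targets, which shares Nr4a1 with the immediate early list, had a median of 0 over 23 members. Of the 18 that passed the filter 2 were 2-fold lower, Nr4a1 and Prkar2b, against 0.659% of all genes compared. Prkar2b is the kinase subunit described above as also abundant in fat. Nfil3, a transcriptional repressor induced by cyclic AMP in several cell types, read 7.70 in control, 9.76 after NTS and 8.49 after NTS/PGE2 (0.78). It was 1.5-fold higher than control after NTS/PGE2, and its highest value was on the NTS array.

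Immune lists were near or slightly below the control level. Of 36 macrophage genes 24 passed the filter. Of the 24, 2 were 2-fold lower, against 0.659% of all genes compared, and the median over all 36 was -0.31. Retnla, a marker of alternatively activated macrophages, read 7.30 in control, 4.78 after NTS and 4.80 after NTS/PGE2 (-2.50), and Lyz2, lysozyme, read 9.60 in control, 8.41 after NTS and 8.57 after NTS/PGE2 (-1.03), and both treated arrays were below control for each. The Retnla value on the NTS/PGE2 array lay below the 25th percentile of that array. Csf1r, the receptor that macrophages need to survive, read 9.39 in control, 8.30 after NTS and 9.55 after NTS/PGE2 (0.16). Cd52 differed by -0.90. Neutrophil and mast cell genes had 0 of 18 members passing the filter. T and NK cell genes had 3 of 19 passing and B and plasma cell genes 3 of 14, with medians of 0 over all measured members and no member past 1.5-fold. MHC class II genes had a median of -0.21 over 8 members, and the 6 that passed were all lower by less than 1.5-fold. Of 24 interferon response genes, with a median of -0.24, 21 passed the filter. Ifi27l2a, at -1.16, was the 1 member 2-fold lower. At 1.5-fold 5 were lower, against 2.15% of all genes compared, including Rsad2, an antiviral enzyme, at -0.93. Chemokine and cytokine genes had a median of 0 over 33 members, and of -0.33 over the 17 that passed the filter. Cxcl13, which attracts B cells, read 7.60 in control, 6.70 after NTS and 6.45 after NTS/PGE2 (-1.15), and Ccl28, a chemokine of mucosal surfaces, read 10.74 in control, 10.48 after NTS and 11.73 after NTS/PGE2 (0.99). Of 6 erythrocyte genes, 5 of which passed the filter, 1 was 2-fold lower, against 0.659% of all genes compared. It was Tfrc, the transferrin receptor, at -1.12. Alas2, which starts heme synthesis in red cells, differed by -0.96, and the list's median was -0.25.

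Lists of nephron segments outside the proximal tubule had medians near the control level. For their counts, 0.0607% of all genes compared were 2-fold higher and 0.659% 2-fold lower. At 1.5-fold these shares were 0.555% and 2.15%. Loop and distal tubule genes had 0 of 26 members past 1.5-fold and a median of 0.00. The collecting duct principal cell list had 0 of 19 past 2-fold and a median of -0.01. Slc5a3, which imports the osmolyte myo-inositol, read 11.31 in control, 10.60 after NTS and 12.21 after NTS/PGE2 (0.90), and Elf5, a transcription factor of principal cells, differed by -0.98. Aqp2, the water channel of principal cells, read 10.23 in control, 8.49 after NTS and 10.73 after NTS/PGE2 (0.49). Intercalated cell genes had 0 of 20 past 2-fold and a median of -0.13. Of the 20, 17 were lower by any amount, against 4743 of all 11534 genes compared. Rhbg, an ammonia transporter, differed by -0.78. Podocyte genes had 0 of 22 past 1.5-fold and a median of 0.00. Nphs1, the slit diaphragm protein nephrin, read 7.36 in control, 7.38 after NTS and 7.56 after NTS/PGE2 (0.20), and Wt1, a podocyte transcription factor, read 8.30 in control, 8.74 after NTS and 8.39 after NTS/PGE2 (0.09). Endothelial genes had 1 of 28 past 2-fold, Fabp4, and a median of -0.04, and Pecam1, an adhesion protein of endothelium, read 9.55 in control, 8.78 after NTS and 9.33 after NTS/PGE2 (-0.23). Renin and angiotensin genes had 0 of 9 past 1.5-fold and a median of 0. Ace, the angiotensin-converting enzyme, differed by 0.41.

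In the prostaglandin pathway 0 measured members were counted past 2-fold. Of all genes compared only 0.0607% were 2-fold higher and 0.659% 2-fold lower, so a count of 0 does not set these lists apart. At 1.5-fold these shares were 0.555% and 2.15%. Of 13 synthesis genes 11 passed the filter and 0 were past 1.5-fold, and the median over all 13 was -0.16. Pla2g5, a phospholipase A2 that frees arachidonic acid, differed by -0.58. Ptgs2, the inducible cyclooxygenase, read 7.93 in control, 6.70 after NTS and 7.66 after NTS/PGE2 (-0.27), and Ptges, the inducible terminal synthase of PGE2, read 9.77 in control, 9.79 after NTS and 9.33 after NTS/PGE2 (-0.44). Of 9 receptors 5 passed the filter and 0 were past 1.5-fold, and the median over all 9 was 0. Ptger1, which encodes EP1, read 8.18 in control, 7.54 after NTS and 7.80 after NTS/PGE2 (-0.38). Ptger2, which encodes EP2, read 5.55 in control, 5.55 after NTS and 5.55 after NTS/PGE2 (0), equal on both arrays and below the filter. Ptger3, which encodes EP3, read 8.82 in control, 7.70 after NTS and 8.99 after NTS/PGE2 (0.16) and Ptger4, which encodes EP4, read 7.59 in control, 7.59 after NTS and 7.59 after NTS/PGE2 (0). Of the EP receptors only Ptger3 was higher on the NTS/PGE2 array, by 0.16. Of 10 transport and breakdown genes 1 was 1.5-fold higher, Slc22a7, which carries prostaglandins and other anions, at 0.65, and the median was 0.00. Hpgd, which inactivates PGE2, read 10.13 in control, 7.80 after NTS and 10.38 after NTS/PGE2 (0.25).

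**Figure D4:**
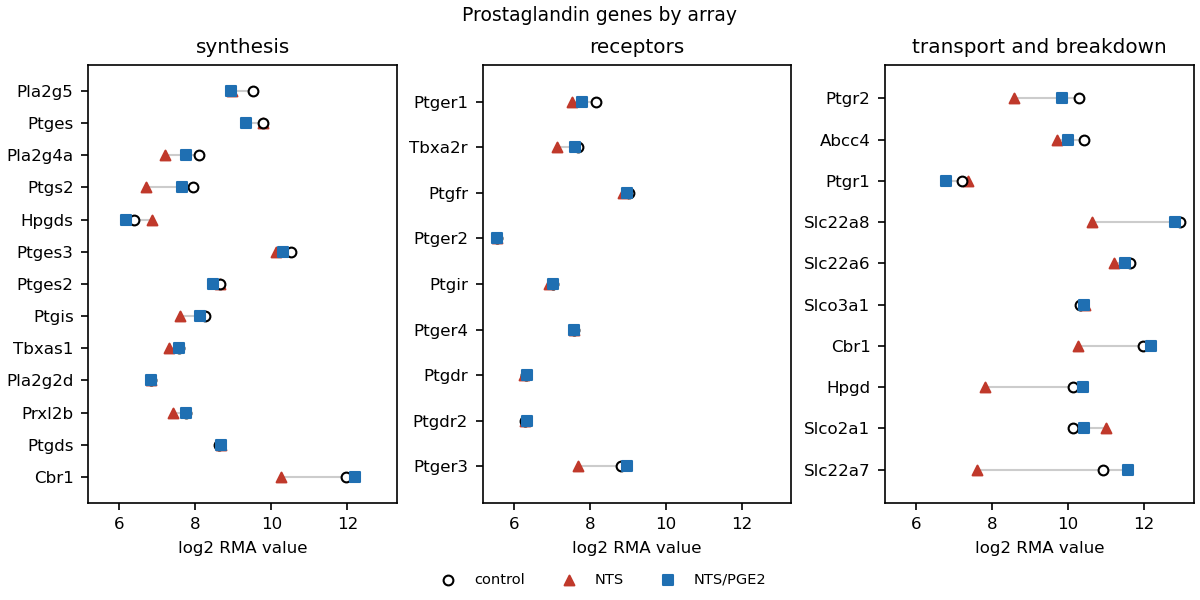
Log2 RMA values of the measured prostaglandin synthesis, receptor, and transport and breakdown genes on the control, NTS and NTS/PGE2 arrays (horizontal axis), 1 array each. Most control and NTS/PGE2 points lie close together, and the largest gap between them, in Slc22a7, is 0.65.

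Stress, rhythm and metabolism lists held few large differences, as did all genes compared, with 0.0607% 2-fold higher and 0.659% 2-fold lower. The NRF2 and heme list had 1 of 21 members 2-fold higher, Hmox1, and a median of -0.06, and Gclc, which makes the precursor of glutathione, differed by 0.59. Heat shock and ER stress genes had 0 of 30 past 2-fold and a median of 0.06. Hsph1, a chaperone, differed by 0.87 and Hspb1, a small heat shock protein, by -0.66. Of 15 p53 targets 0 were past 2-fold and the median was 0, with Phlda3 at -0.68. The clock list had 0 of 21 past 2-fold and a median of 0, with Ciart, a repressor of the clock, at -0.83. Glucocorticoid targets had 1 of 17 past 2-fold, Lcn2, and a median of -0.08. Zbtb16 read 9.70 in control, 11.62 after NTS and 10.49 after NTS/PGE2 (0.79). Angptl4, a lipase inhibitor, read 9.96 in control, 11.57 after NTS and 10.73 after NTS/PGE2 (0.77). The time of day at which the kidneys were taken is not among the labels used here. Of 20 cholesterol synthesis genes 1 was 2-fold lower, Insig1, which holds the sterol sensor in the endoplasmic reticulum, at -1.002, and the median was -0.10. Of 28 fatty acid oxidation and PPAR-alpha genes 0 were past 2-fold, with a median of 0.09. Cyp4a12a, a fatty acid hydroxylase, read 8.04 in control, 10.71 after NTS and 7.17 after NTS/PGE2 (-0.87).

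**Figure D5:**
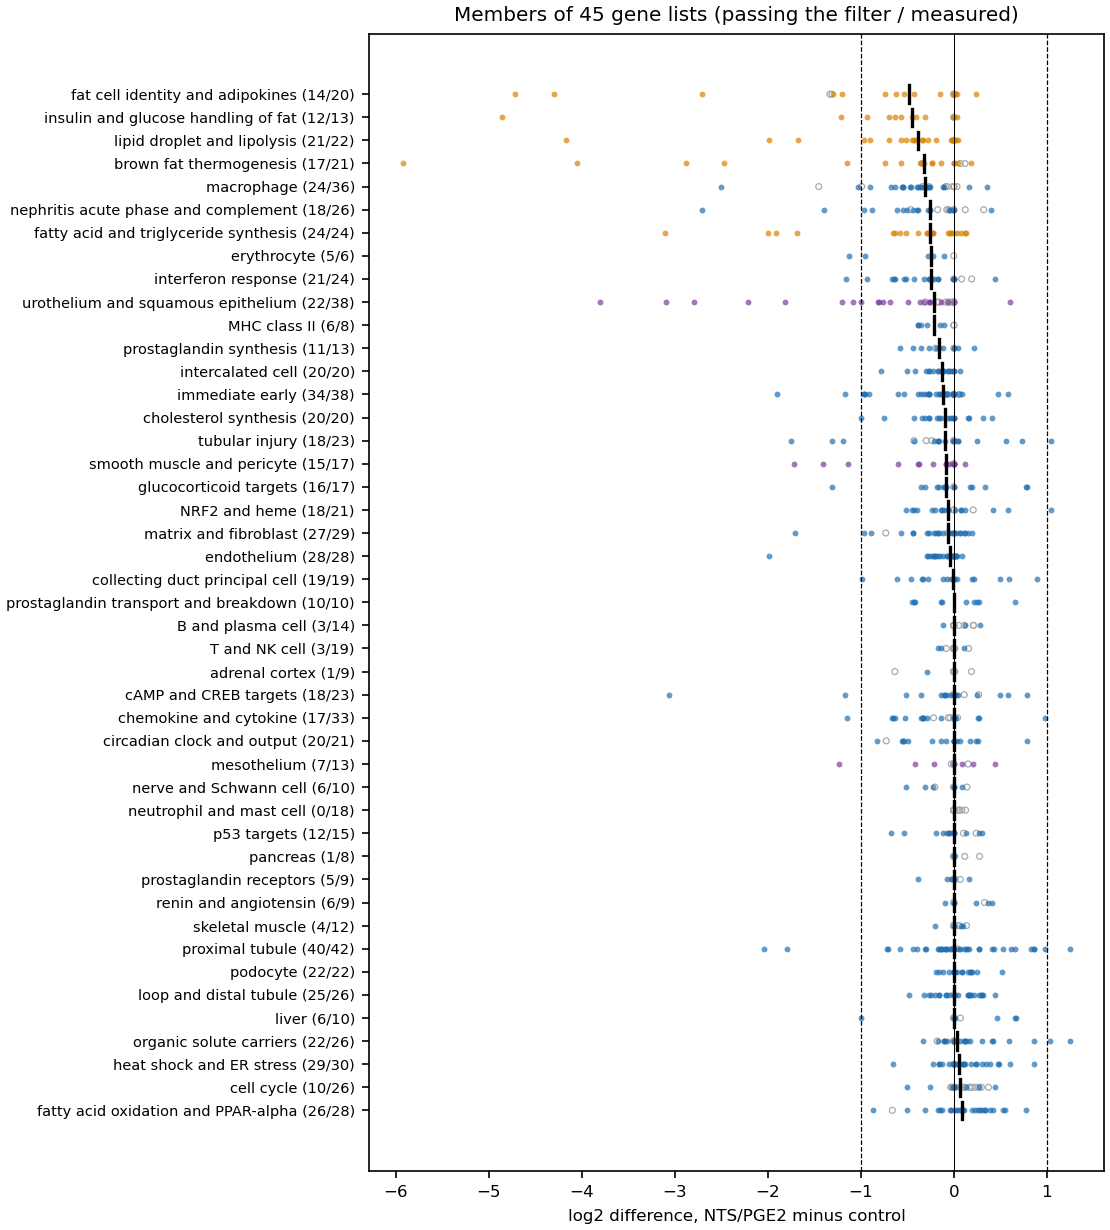
Difference in log2 RMA value (NTS/PGE2 minus control, horizontal axis) for every measured member of the 45 gene lists, with a black bar at the list's median. Orange marks the fat lists, purple the pelvis lists, blue the others and open circles members that did not pass the filter, and the members farthest below 0 lie in the fat and pelvis lists.

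Lists of other tissues had medians near 0. Liver genes had a median of 0.01 over 10 members, and Alb, albumin, differed by 0.66 and Ahsg, a plasma protein, by 0.67, while Trf, transferrin, stood at -0.995. Adrenal cortex, pancreas, skeletal muscle and nerve genes had 0 members counted past 1.5-fold and medians of 0, over 9, 8, 12 and 10 measured members. Only 1, 1, 4 and 6 of these passed the filter and could be counted, so these lists say little. Mc2r of the adrenal cortex list differed by -0.63 but did not pass. Beyond the lists, 30 of the 76 lower genes stand in no list. Sptssb, which sets the activity of sphingolipid synthesis, read 7.59 in control, 4.95 after NTS and 4.84 after NTS/PGE2 (-2.74), Cbr2, a carbonyl reductase, read 9.16 in control, 7.23 after NTS and 6.81 after NTS/PGE2 (-2.34) and Gsdmc2, a gasdermin, read 8.13 in control, 6.61 after NTS and 5.91 after NTS/PGE2 (-2.22). Apod, a lipid-carrying lipocalin, read 8.77 in control, 6.62 after NTS and 7.03 after NTS/PGE2 (-1.75). Chosen after their values were seen, Adig, Slc36a2, Abcd2 and Lgals12, which are also abundant in fat, differed by -1.58, -1.66, -1.86 and -1.04. These 4 were not added to the fat lists, and the counts of those lists leave them out. The 46 lower genes outside the fat, pelvis and other-tissue lists include them.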

How the data were processed

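The authors deposited log2 values, for which the submitters' processing notes name Affymetrix Expression Console and RMA. No source used here gives their versions or a genome build. RMA corrects the background, equalises the probe distributions of the arrays and summarises each probe set, so small differences can be understated. Of 35556 probe sets, 21789 had 1 gene symbol, 21698 of these matched a RefSeq table of GRCm38.p6 by gene identifier, and 0 symbols were altered. Probe sets of a gene were averaged, giving 19938 genes. A gene passed when its higher value reached that array's median over all probe sets, and a gene with equal values had to reach both medians.

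Genes were counted at 2-fold and at 1.5-fold, with no test. The members and the 45 gene lists, with synonyms resolved, were chosen with earlier results of these data known. Named were all 2-fold higher genes, the 30 largest lower ones, up to 4 members of each list with the largest difference, any 2-fold list member and a fixed set of kidney, PGE2 and tissue genes. Genes at the edges of the rules and genes with a motif match were also named. Fgb, Fgg, Fga, Mep1b, Slc17a3, Lep, Apln, Mc2r, Plk3 and Zfp36 were named outside this rule, with their values known. Foxq1, Krt14, Krt15, Krt17, Prdm16, Ppargc1a and Pank1 were also named outside it, with their values known. So were the genes marked above as chosen after their values were seen. Chemosensory receptor genes, small RNA genes and predicted transcripts were left unnamed, 1 higher and 1 lower. Motifs were searched on both strands of the 250 bases before each RefSeq start. Filters, probe set choice, scaling and size rule were varied. The calculations, in Python 3.11.15 with numpy 2.4.6 and pandas 2.3.3, were tested on simulated data.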

Additional observations from a re-analysis of the deposited data

How the results depend on the processing

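The count of 7 genes at least 2-fold higher was 12 after quantile normalisation of the 2 arrays and 64 at 1.5-fold. It was 5 when both values had to reach the median, and 7 without a filter, with the brightest probe set of a gene and without the fat, pelvis and other-tissue lists. The count of 76 lower genes was 41 when both values had to reach the median, 46 without those lists and 248 at 1.5-fold, and it lay between 70 and 84 under the other alternatives. Equal values judged against the control median were added as an alternative after seeing the data and gave 7 and 76. Over members passing the filter alone, which favours members that differ, list medians moved to -0.73 for urothelium and squamous epithelium, -0.39 for acute phase and complement, -0.14 for T and NK cell, -0.33 for chemokine and cytokine, 0.24 for liver and -0.29 for adrenal cortex. Of 186 named genes 5 moved with the brightest probe set, to 1.83 for Muc19, -1.78 for Acaca, -0.72 for Slc8a1, 0.39 for Nphs1 and -1.17 for Ciart, and 0 reversed. Median centring and quantile normalisation shifted the median over genes by -0.03 and 0.03, and 0 named genes moved. The cause of these changes was not tested. No paired analysis was possible because each group has 1 array. Differences with a value below the 25th percentile of its array, 6 among the 2-fold lower genes, rest on dim values.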

Other observations

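Probe sets outside the single-gene comparison also differed. Among the genes compared above, 0.0607% were 2-fold higher and 0.659% 2-fold lower. Of 847 probe sets with several gene symbols that passed the filter, 1 was 2-fold higher and 27 were 2-fold lower after NTS/PGE2. Their differences ran from -2.99 to 1.17 on the log2 scale. Of 4621 passing probe sets that have no gene symbol, 29 were 2-fold higher and 53 were 2-fold lower, with differences from -4.26 to 2.21.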
